A study of Homo sapiens with 62 samples.

Results

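A2058 is a human melanoma cell line whose parental cells, per the sample labels, carry gains of chromosome arms 1q, 7p and 8q. The libraries described here are the 4 RNA-seq libraries of A2058 clones labelled 8q-loss and the 4 libraries of wild-type (WT) A2058 cells, 8 of the 62 samples of the series, chosen by their group labels. The 8q-loss cells are 2 single-cell-derived clones, clone 1 and clone 2, with 2 libraries each. They were made with ReDACT-CO, a CRISPR-based way of removing an extra chromosome arm, aimed here at 8q. By their labels the 8q-loss clones and the WT cells differ in 8q alone, and both keep the gains of 1q and 7p. The study made matched lines with and without arm gains that recur in cancer, to compare cells that differ in such a gain. Cells were grown for 24 hours after plating, and libraries were made from poly(A)-selected RNA with random hexamer priming. A clone is a line grown from 1 cell, so whatever else set that cell apart is part of the clone. The labels do not say that the libraries of a clone, or the WT libraries, came from separate cultures, so the p-values measure only the spread between these libraries.

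Gain of the long arm of chromosome 8 is among the most common arm gains in human cancers, and the arm carries MYC, the transcription factor that drives ribosome production and growth. An extra arm raises the DNA dose of every gene on it, and transcript levels usually follow the dose unless feedback or regulation holds them. In melanoma, the pigment cell program is run by MITF with SOX10, and its products include the melanin enzymes TYR, TYRP1 and DCT and the melanosome proteins PMEL and MLANA.

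The 8 libraries held between 19595543 and 24051545 counts assigned to genes. Of the lineage markers, SOX10 and PMEL stood high in both groups, while TYR, MLANA and TYRP1 fell in the clones. SOX10 had a mean of 597 CPM (counts scaled to library size) in WT and 557 in the 8q-loss libraries, and PMEL had 1344 and 1471. The 8 epithelial markers summed to 82.7 to 109 CPM in WT and 98.4 to 124 in the clones, most of it KRT18 (means of 83.4 and 97.9), while KRT5 and KRT19 were at 0. Among the leukocyte markers CD3E was at 0, and PECAM1, the endothelial adhesion molecule, had 4 to 7 counts per library in both groups. The summed level of the 4 endothelial markers ran from 2.15 to 4.04 CPM in WT and from 4.999 to 8.41 in the 8q-loss libraries, and that of the 5 fibroblast markers from 37.4 to 47.0 and from 67.3 to 83.6. KDR went from a mean of 2.17 to 6.45 CPM and LUM from 21.6 to 60.7, while COL1A1, also on the fibroblast list, was below WT in clone 1 and at 37.8 CPM in clone 2 replicate 1 beside a WT mean of 17.8. The part of these markers in the other results was not tested. The order of genes in the deposited tables splits the A2058 libraries into 2 sets: the 8q-loss libraries share a set with WT replicates 3 and 4, and WT replicates 1 and 2 came with the other A2058 clones. The labels do not call this a batch, and the counts of 8q-loss against WT and of genes called in both clones are given also against WT replicates 3 and 4 alone. Mitochondrial transcripts made up 2.19% to 4.12% of counts in the 8q-loss libraries and 2.52% to 4.12% in WT.

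Genes of 8q were lower in both clones along the whole arm, from its first window beside the centromere to its end, and genes of the short arm were not. For each library, the median log2 difference of the 342 tested 8q genes from the WT mean, less the same median over the other autosomal arms, was -0.50 and -0.51 in the libraries of clone 1, -0.59 and -0.55 in those of clone 2, and between -0.02 and 0.02 in the WT libraries. The groups did not overlap. The mean difference was -0.54 on the log2 scale (SD 0.04 in the 8q-loss libraries and 0.02 in WT, n = 4 against 4), which is 68.8% of the WT level. Its two-sided exact permutation p was 0.0286, the smallest that 70 arrangements of the libraries can give. With genes of low counts kept in, the mean difference was -0.33 with the same p. A fall from 3 copies to 2 with transcript in proportion would give -0.58, or 66.7%, and the copy number itself was not measured in these files. In bulk libraries, fewer cells with the extra arm and less RNA per cell cannot be told apart. In windows of 10 Mb, the clone means on 8q lay between -0.40 and -0.61 in clone 1 and between -0.50 and -0.67 in clone 2, and on 8p between -0.01 and 0.11 over both clones.

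**Figure D1:**
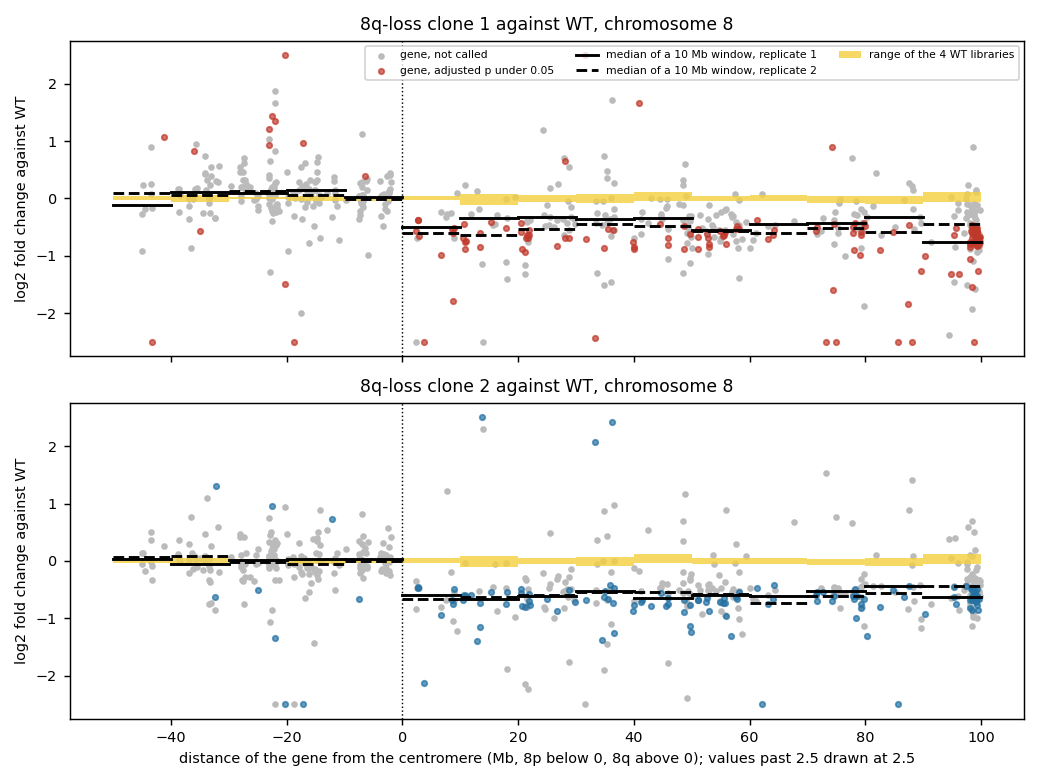
Log2 fold change against WT of each tested gene of chromosome 8 (vertical axis) by its distance from the centromere in Mb (horizontal axis, 8p below 0) in clone 1 (top) and clone 2 (bottom); black lines are medians of 10 Mb windows in each of the 2 libraries of a clone, yellow bands the range of the 4 WT libraries, coloured points genes with an adjusted p under 0.05. Window medians sit near 0 on 8p and step down at the centromere in both clones, and clone means stay between -0.40 and -0.67 out to the end of 8q.

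Gene by gene, edgeR's quasi-likelihood test with Benjamini-Hochberg adjustment over all 15141 genes tested called 308 genes changed at an adjusted p under 0.05, which is 2.03% of genes: 82 higher (0.542%) and 226 lower (1.49%). On 8q, 131 of 342 tested genes were lower and 0 were higher (38.3% called), and 93.3% had a log2 fold change below 0, with a median of -0.53. On 8p, 0 of 190 tested genes passed in edgeR, 16 had an unadjusted p under 0.05, and DESeq2 called 5. Outside 8q, 177 of 14799 genes passed (1.2%), 82 higher and 95 lower, with a median of 0.01. Against WT replicates 3 and 4 alone, 16 genes passed, 4 of them on 8q, and against WT replicates 1 and 2 alone 79 passed, 28 of them on 8q, while the 8q median stayed at -0.51 and -0.55. Without WT replicate 2, 1 or 3 the count was 119, 132 or 197.

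The share of 8q genes that passed differed with their expression. Among the 227 with a mean of at least 10 CPM, 123 passed (54.2%), and among the 115 with less, 8 passed (6.96%). In the first group 80% of log2 fold changes lay between -0.74 and -0.32. There, 85 genes lay below -0.58, 123 lay between that value and -0.29, 14 lay between -0.29 and 0, and 5 were above 0. Most well-expressed 8q genes lay close to the shift of the arm, with a small number well beyond or short of it.

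MYC (chr8:127735434-127741434, plus strand) was among the 8q genes that fell furthest. It stood at 42.8, 41.3, 40.1 and 36.4 CPM in WT replicates 1 to 4, at 23.0 and 20.03 in clone 1, and at 25.08 and 20.7 in clone 2. Every 8q-loss library was below every WT library. The mean went from 40.1 ± 2.73 to 22.2 ± 2.29 CPM (SD, n = 4 each), which is -0.85 on the log2 scale (SE 0.10, adjusted p = 0.00275), and each clone passed by itself, with -0.90 and -0.81. Against WT replicates 3 and 4 alone it was -0.79 with an adjusted p of 0.127.

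SNAI2 (chr8:48917604-48921740, minus strand), which encodes Slug, a transcription factor of the neural crest and of cell motility, fell far more than the arm. Its CPM was 27.8, 31.7, 24.0 and 18.4 in WT, 4.88 and 3.97 in clone 1, and 5.70 and 6.03 in clone 2. The groups stood well apart, with a mean of 25.5 ± 5.67 in WT and 5.14 ± 0.92 in the 8q-loss libraries, or -2.31 on the log2 scale (SE 0.20, adjusted p = 0.00046). It passed against WT replicates 3 and 4 alone as well (adjusted p = 0.0268).

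The other 8q genes with the largest falls among those of at least 10 CPM were ZNF251 (-1.05), SDCBP (-0.996), KHDRBS3 (-0.96), TRAPPC9 (-0.95), PLEKHF2 (-0.92), TMEM67 (-0.89), ZNF706 (-0.87) and RRS1 (-0.87), with adjusted p values from 0.00042 for RRS1 to 0.0342 for PLEKHF2. SDCBP, the scaffold protein syntenin that sorts cargo into exosomes, stood at 425, 382, 291 and 297 CPM in WT and at 209, 178, 153 and 160 in the 8q-loss libraries. The lowest WT library was above the highest 8q-loss library. RRS1, a factor of large ribosomal subunit assembly, was at 110, 108, 104 and 109 CPM in WT and at 55.5, 57.7, 61.7 and 61.4 in the clones. The groups did not overlap. RRS1, ZNF706 and SNAI2 were the 3 of the 10 largest falls that passed against WT replicates 3 and 4 alone. KHDRBS3, an RNA-binding splicing regulator, was at 167, 156, 117 and 117 CPM in WT and at 69.0, 69.5, 65.6 and 81.8 in the clones, again without overlap.

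**Figure D2:**
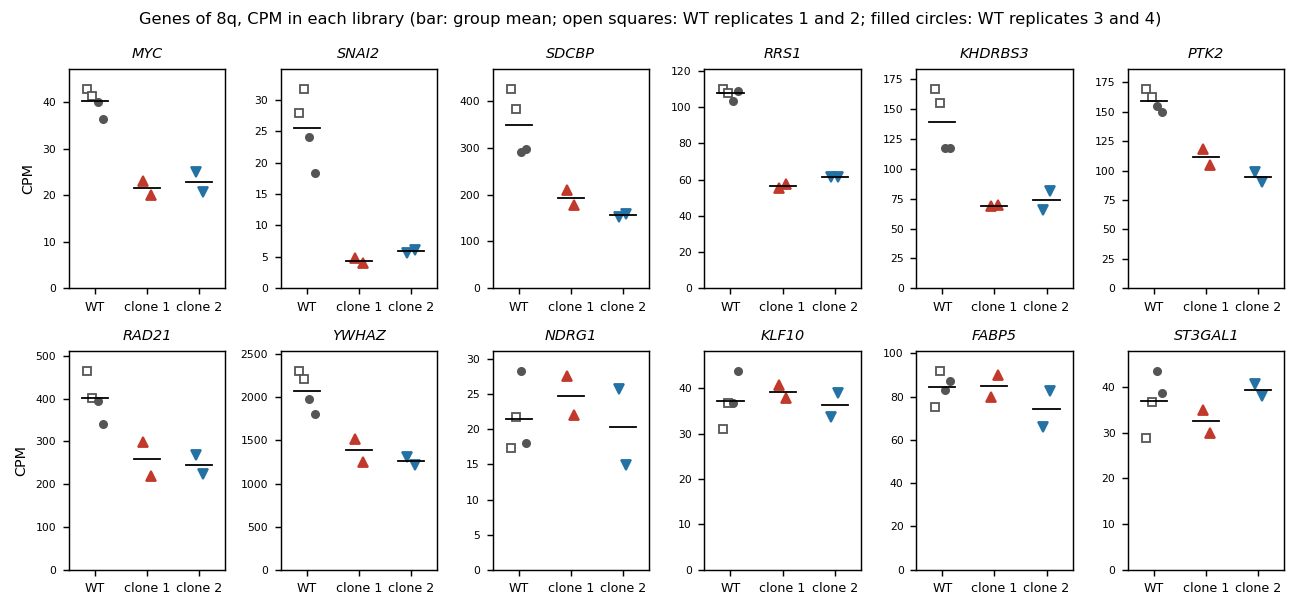
CPM of 12 genes of 8q in each library (vertical axis from 0), with WT as grey squares and circles (open squares WT replicates 1 and 2, filled circles WT replicates 3 and 4), clone 1 as red and clone 2 as blue triangles, and bars for group means. MYC, SNAI2, SDCBP and RRS1 do not overlap between WT and the clones, while NDRG1, KLF10, FABP5 and ST3GAL1 do.

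Translation and ribosome genes of 8q fell together: 15 of 17 passed, all lower, 88.2% beside 38.3% of all tested 8q genes and 54.2% of those of at least 10 CPM. Their median log2 fold change was -0.55 beside -0.53 over 8q. By clone, 15 were lower in clone 1, where 34.1% of the 370 tested 8q genes were, and 9 in clone 2, where 32.4% were. RPS20, a small ribosomal subunit protein, stood at 600, 561, 616 and 566 CPM in WT and at 331, 302, 398 and 375 in the clones (log2 -0.74, adjusted p = 0.00474). PABPC1, which binds poly(A) tails, had a mean of 1486 CPM in WT and 953 in the clones (-0.64, adjusted p = 0.00852). The eIF3 subunits EIF3H and EIF3E fell by 0.58 and 0.54. The 2 that did not pass, EEF1D (-0.60, adjusted p = 0.118) and RPL8 (-0.55, adjusted p = 0.136), had values of the same size with wider spread. Ribosomal protein genes have many near-identical processed copies, and how reads were shared among them is not given in the sources used here.

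Of the 33 tested 8q genes with roles in cancer and signalling, 18 fell and 0 rose, with a median of -0.52. That share, 54.5%, is near the 54.2% of all 8q genes of at least 10 CPM. PTK2, the focal adhesion kinase, was at 169, 163, 155 and 150 CPM in WT, at 118 and 105 in clone 1, and at 99.0 and 90.4 in clone 2. The groups did not overlap, and the log2 value was -0.62 (SE 0.09, adjusted p = 0.00778). LYN, a kinase of the SRC family, fell by 0.68, and E2F5, a repressive E2F factor whose exons partly overlap another gene, fell by 0.82. YWHAZ, a 14-3-3 adaptor, went from a mean of 2077 to 1323 CPM (-0.65, adjusted p = 0.0126), MTDH from 416 to 268 (-0.64, adjusted p = 0.0305) and RECQL4, a DNA helicase, from 177 to 111 (-0.67, adjusted p = 0.0106). ANGPT1, a ligand of the endothelial receptor TIE2, differed between the clones. It was at 34.9, 36.5, 35.0 and 28.09 CPM in WT, at 41.2 and 29.8 in clone 1, and at 4.24 and 3.41 in clone 2 (clone 2 minus clone 1 -3.22, adjusted p = 5.45e-05). Of the 8 tested 8q genes of the respiratory chain and the vacuolar proton pump, 3 fell, 37.5% beside 38.3% of all tested 8q genes: CYC1 (-0.64, adjusted p = 0.00668), ATP6V1C1 (-0.56) and ATP6V1H (-0.60). ATP6V0D2, a subunit of that pump named after its values were seen, was above WT in clone 1 (1.67, adjusted p = 0.00623) and not in clone 2 (-0.17, adjusted p = 0.884), and its clone difference passed (clone 2 minus clone 1 -1.84, adjusted p = 0.0136).

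Some well-expressed 8q genes fell little or not at all. The 10 with the smallest absolute change were KLF10, ST3GAL1, THEM6, NDRG1, FABP5, LRP12, JPH1, RBM12B, RDH10 and PLEC, with log2 fold changes from -0.23 for PLEC to 0.16 for RDH10, and none passed. NDRG1, a gene induced by hypoxia and differentiation, stood at 17.4, 21.8, 28.4 and 18.1 CPM in WT and at 27.6, 22.02, 25.8 and 14.9 in the clones. KLF10, an early gene of TGF-beta signalling, was at 31.1, 36.7, 36.9 and 43.9 CPM in WT and at 40.7, 37.8, 33.6 and 39.1 in the clones. For both genes the ranges of the groups overlapped. RDH10, a retinol dehydrogenase, averaged out opposite values: 35.3 to 48.3 CPM in WT, 73.8 and 57.0 in clone 1, and 28.4 and 27.7 in clone 2. The clone difference was -1.23 (adjusted p = 0.00392). FABP5 and RBM12B share sequence or exons with other genes, so their values are less certain.

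Several protein complexes and families have members both on 8q and elsewhere. Over 10 of them, at least 1 subunit encoded on 8q fell in each, and 0 of the 51 tested partners encoded elsewhere passed in edgeR, beside 1.2% of genes outside 8q. Of these partners 7 had an unadjusted p under 0.05, and DESeq2 called 1. RAD21, the kleisin of the cohesin ring (whose exons partly overlap a neighbour), stood at 466, 401, 396 and 340 CPM in WT and at 299, 218, 268 and 223 in the clones (-0.67, adjusted p = 0.0263), and the 8 other cohesin genes had a median of 0.007. COPS5, the catalytic subunit of the COP9 signalosome, fell by 0.61 (adjusted p = 0.00473) beside a median of -0.02 in 8 partners. The 11 eIF3 partners had a median of 0.03, the 7 of complex III 0.03 and the 5 of the 14-3-3 group -0.05. MCM4, a subunit of the replicative helicase, fell by 0.42 (adjusted p = 0.0265), and its 5 MCM partners had log2 fold changes from 0.001 to 0.34, none of which passed. NBN of the MRN complex fell by 0.43 (adjusted p = 0.0468), PRKDC, the catalytic subunit of DNA-PK, by 0.42 (adjusted p = 0.0196), and ELOC of the elongin complex by 0.60 (adjusted p = 0.0125).

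**Figure D3:**
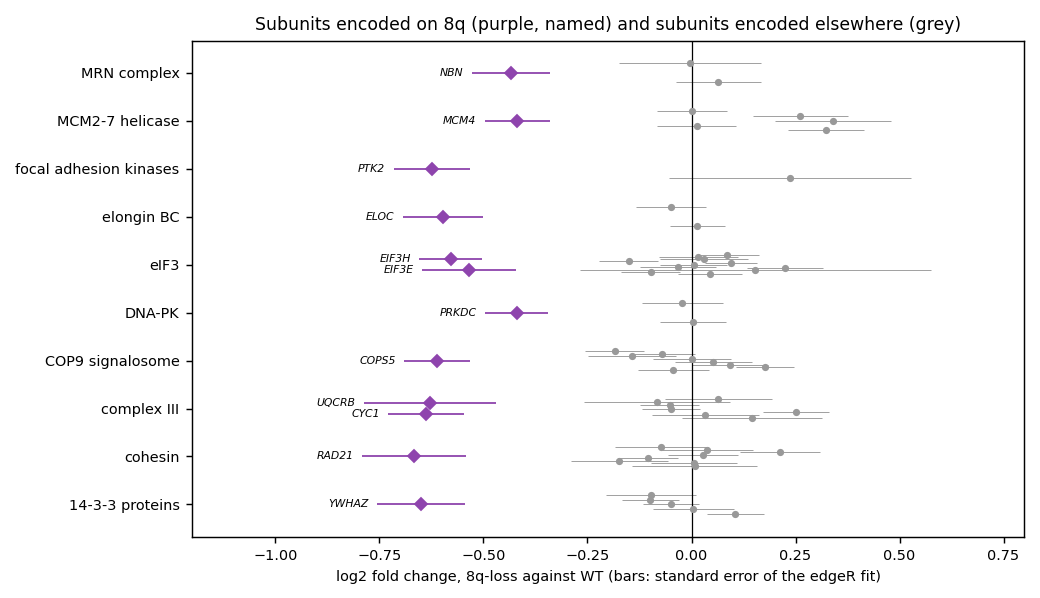
Log2 fold change of 8q-loss against WT (horizontal axis, bars are standard errors of the edgeR fit) for subunits encoded on 8q (purple diamonds, named) and elsewhere (grey circles), 1 line of the vertical axis per complex or family. The 8q subunits lie left of their partners, which cluster around 0, and the 5 MCM partners lie at or above 0.

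The genes that MYC drives and partners with were examined outside 8q, where 1.2% of all genes passed. Of 37 tested MYC target genes outside 8q, which serve nucleotide synthesis, ribosome production and translation, 0 passed, 2 had an unadjusted p under 0.05, and DESeq2 called 1. Their median was -0.07 and their range from -0.39 to 0.32. The 2 MYC targets on 8q, RRS1 and BOP1, both fell. Of 10 tested members of the MYC-MAX network outside 8q, 0 passed (median -0.17, 3 at an unadjusted p under 0.05, 0 in DESeq2), and MAX, the partner of MYC, was at -0.24 with an adjusted p of 0.244. Of 74 ribosomal protein genes outside 8q, 0 passed, 0 had an unadjusted p under 0.05, and DESeq2 called 0, with medians of -0.21 in clone 1 and 0.15 in clone 2. By clone, 3 of the 74 were lower in clone 1, where 3.08% of all genes were, and 0 passed in clone 2. The clone difference passed for 3, beside 3.42% of all genes.

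Growth and stress lists gave 0 or 1 call each in edgeR, against the same background of 1.2%. Outside 8q, 0 of 26 DNA replication genes passed in edgeR (median 0.07, 21 above 0), 5 had an unadjusted p under 0.05, and DESeq2 called 1. Of 24 mitosis genes 0 passed, 3 had an unadjusted p under 0.05, and DESeq2 called 0. All 24 lay below 0, with a median of -0.24, beside a median of 0.007 and 51.6% above 0 over all genes tested. The edgeR count was also 0 for 12 p53 targets (2 at an unadjusted p under 0.05, 0 in DESeq2), 13 G1 cyclins and CDK inhibitors (3 and 1), 15 genes of MAPK output (2 and 0), 11 heat shock genes (2 and 1), 17 genes of hypoxia and glycolysis (1 and 0) and 17 genes of the AP-1 and early response list (5 and 3). Of 20 genes of the unfolded protein and amino acid response, SESN2, a stress-induced inhibitor of mTORC1, was lower: 14.9, 13.3, 16.3 and 11.9 CPM in WT and 9.09, 8.39, 9.35 and 8.97 in the clones (-0.65, adjusted p = 0.0305, and 0.396 against WT replicates 3 and 4 alone).

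Several pigment cell genes fell in both clones. Of 18 tested melanocyte and pigmentation genes, 4 fell and 0 rose, 22.2% beside 1.2% of all genes outside 8q, and TYR, MLANA and TYRP1 fell by far more than the arm did. Their promoters, 250 bases before to 50 bases after the start, are shown because 3 genes of 1 program fell together. They are from RefSeq on GRCh38.p14, all on the plus strand, 5′ to 3′, with CATGTG or its reverse complement CACATG, a core that MITF binds, in capitals. TYR lies at chr11:89177625-89177924, TYRP1 at chr9:12693135-12693434 and MLANA at chr9:5890639-5890938.
TYR: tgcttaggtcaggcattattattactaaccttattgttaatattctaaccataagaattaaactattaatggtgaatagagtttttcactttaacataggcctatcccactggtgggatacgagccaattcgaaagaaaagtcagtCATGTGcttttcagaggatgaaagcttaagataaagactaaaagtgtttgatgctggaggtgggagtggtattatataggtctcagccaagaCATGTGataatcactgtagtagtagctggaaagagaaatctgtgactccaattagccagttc
TYRP1: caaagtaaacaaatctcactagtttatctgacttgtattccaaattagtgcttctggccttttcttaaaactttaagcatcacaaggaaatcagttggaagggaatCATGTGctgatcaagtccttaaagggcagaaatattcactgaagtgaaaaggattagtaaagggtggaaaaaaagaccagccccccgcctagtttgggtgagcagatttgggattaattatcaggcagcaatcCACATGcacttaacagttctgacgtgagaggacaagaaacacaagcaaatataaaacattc
MLANA: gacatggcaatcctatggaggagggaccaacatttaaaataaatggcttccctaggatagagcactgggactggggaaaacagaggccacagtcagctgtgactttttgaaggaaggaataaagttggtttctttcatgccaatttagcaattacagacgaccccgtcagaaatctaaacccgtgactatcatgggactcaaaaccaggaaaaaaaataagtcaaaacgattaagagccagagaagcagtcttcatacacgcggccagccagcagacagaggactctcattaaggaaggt
The promoters of TYR and TYRP1 held 2 matches each, the nearer one beginning at -12 and -11 from the start, and that of MLANA held 0. Those of GPNMB (log2 fold change -0.05) and GPR143 (0.56), which did not pass, also held 2 matches each, the nearer at -62 and -33. On either strand CATGTG occurred in 11.1% of the 35116 RefSeq promoters of this length (3897) and in 11 of the 23 promoters of the 14 melanocyte genes matched by symbol. CACGTG, the E-box of MYC and MAX and also bound by MITF, occurred in 7.3% of all promoters and in 0 of the 23. A match describes the letters and shows no binding.

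TYR (tyrosinase, the rate-limiting enzyme of melanin synthesis, chr11:89177452-89295759) stood at 109, 159, 97.3 and 128 CPM in WT. It was at 2.103 and 6.63 in clone 1 and at 3.36 and 5.70 in clone 2. Every clone library was many-fold below every WT library. The mean went from 123.3 ± 26.8 to 4.45 ± 2.08 CPM (SD, n = 4 each), or -4.79 on the log2 scale (SE 0.32, adjusted p = 0.00013), with -4.83 in clone 1 and -4.77 in clone 2. MLANA (melan-A, chr9:5890802-5910606) was at 24.1, 21.6, 13.99 and 21.8 CPM in WT and at 2.73, 2.21, 1.61 and 2.43 in the clones, again far apart (-3.17, SE 0.22, adjusted p = 0.00013). Of the 4 pigment genes that fell, TYR and MLANA passed against WT replicates 3 and 4 alone (adjusted p = 0.00981 and 0.0125), and TYRP1 and EDNRB did not (adjusted p = 0.1003 and 0.181).

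TYRP1 (a melanosomal enzyme beside tyrosinase, chr9:12685439-12710290) was at 13.9, 20.1, 15.7 and 9.95 CPM in WT and at 2.48, 2.44, 3.85 and 4.30 in the clones, with no overlap (-2.19, SE 0.26, adjusted p = 0.00325). EDNRB, the endothelin receptor of melanoblasts on 13q, was at 124, 140, 125 and 91.4 CPM in WT and at 62.2, 48.3, 67.4 and 58.1 in the clones (-1.02, adjusted p = 0.00625). The transcription factors above these genes did not pass: MITF had 173 CPM in WT and 150 in the clones (-0.21, adjusted p = 0.668), and SOX10 had a log2 fold change of -0.10. PMEL was at 0.13 and GPNMB at -0.05. DCT averaged 1464 CPM in WT and 667 in the clones (-1.13, adjusted p = 0.231), with WT libraries from 835 to 1736 and clone libraries from 306 to 1251, so the groups overlapped. SLC45A2 and SLC24A5, melanosomal transporters, fell in clone 2, and the clones differed, by -3.07 (adjusted p = 0.00262) and -1.03 (adjusted p = 0.0245). SLC45A2 was at 7.06 to 13.3 CPM in WT, at 10.5 and 17.4 in clone 1, and at 1.17 and 2.15 in clone 2.

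Of 15 tested genes outside 8q that mark dedifferentiated melanoma, 2 fell, 13.3% beside 1.2% of genes outside 8q, and neither passed against WT replicates 3 and 4 alone (-4.17 with an adjusted p of 0.127 for SOX9, and -4.12 with 0.303 for WNT5A). SOX9, a neural crest factor of the mesenchymal-type state, was at 5.97, 9.96, 8.83 and 3.46 CPM in WT and at 0.168, 0.0451, 0.731 and 0.420 in the clones (-4.38, SE 0.57, adjusted p = 0.00493). WNT5A, a noncanonical WNT ligand, was low everywhere, at 0.463 to 1.71 CPM in WT, 0.168 and 0 in clone 1, and 0 in both clone 2 libraries (at least 6.86-fold lower in clone 2 with a floor of 3 counts per library). The receptors of that state did not pass, with AXL at 0.12 and NGFR at 0.80. The median of the 15 was -0.02, and 7 of them were above 0. By clone, WNT5A did not pass in clone 1 (adjusted p = 0.0708).

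Fitting WT, clone 1 and clone 2 as separate levels over 16090 genes called 873 genes in clone 1 (5.43%), 377 higher (2.34%) and 496 lower (3.08%), and 449 in clone 2 (2.79%), 135 higher (0.839%) and 314 lower (1.95%). Both clones are compared with the same 4 WT libraries, so a WT library that stands apart enters both counts. Called in both and in 1 direction were 185 genes (1.15%), 35 higher (0.218%) and 150 lower (0.932%). On 8q these were 85 of 370 genes, all lower (23%), and outside 8q 100 of 15720 (0.636%), 35 higher and 65 lower. The 8-library comparison called 92 of these 100 too. Another 41 genes were called in both clones in opposite directions. Without clone 2 replicate 1 or 2 the 185 became 41 or 46, and without WT replicate 2 or 1 they became 75 or 95. Against WT replicates 3 and 4 alone 15 genes passed in both clones. With the 4 clone libraries as 1 group against these WT, 99 of the 100 genes outside 8q were tested, all 99 had the same sign and an unadjusted p under 0.05, and their median absolute log2 value was 1.82 beside 1.88 with all WT. The same libraries had chosen these genes, so this describes their size and is no separate test. Of the 15 genes that passed in both clones against WT replicates 3 and 4 alone, those outside 8q were AUTS2, CA14, CYFIP2, LUM, MAGEC2, MLANA, NRCAM, TYR, ZFP30, ZNF518B and ZNF71.

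Several of the genes lower in both clones were close to silent there. ZNF518B, a zinc-finger gene on chromosome 4, was at 3.50, 5.71, 3.81 and 3.24 CPM in WT, while the 4 clone libraries held 1 read in all, a WT to 8q-loss ratio of 359 (95% exact counting interval 64.0 to 14200). ZFP30 on chromosome 19 was at 4.22, 5.44, 4.83 and 4.53 CPM in WT against 6 reads in the 4 clone libraries, a ratio of 69.9 (31.8 to 192). ZNF71 had 309 reads in WT and 6 in the clones, a ratio of 51.9 (23.6 to 143), and ATP10A, a phospholipid flippase, had 183 and 1, a ratio of 185 (32.7 to 7330). These intervals cover counting error only. With the clone libraries as 1 group, each of these 4 passed also against WT replicates 3 and 4 alone. With the clones fitted separately against these WT, ZNF518B, ZFP30 and ZNF71 passed in both clones and ATP10A did not.

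AUTS2, a gene of neuronal development, was at 5.50, 9.74, 10.4 and 6.62 CPM in WT and at 0.126, 0.180, 0.585 and 0.374 in the clones (-4.68, adjusted p = 0.00054). COL3A1, the chain of type III collagen, was at 5.61, 5.004, 6.92 and 8.03 CPM in WT and at 0, 0.361, 0.195 and 0.327 in the clones (-4.84, adjusted p = 0.00158). MAGEC2, a cancer-testis gene of X, was at 8.95, 8.38, 5.95 and 7.17 CPM in WT, at 0 in both libraries of clone 1, at least 58.2-fold lower with a floor of 3 counts per library, and at 0.292 and 0.280 in clone 2. The WT and clone values did not overlap for any of these 3. ZNF43, ZNF28, TUBA3C and SOX9 complete the 12 largest falls together with TYR, with log2 fold changes from -5.50 to -4.38. TUBA3C has near-identical copies, and its value is less certain.

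The 12 largest shared increases outside 8q were smaller, from 1.42 to 2.38 on the log2 scale. SMOC1, a secreted matricellular protein, had the highest level of them: 33.4, 43.2, 63.4 and 45.7 CPM in WT, 171 and 138 in clone 1, and 136 and 135 in clone 2 (1.64, SE 0.17, adjusted p = 0.00187). LUM, the collagen-binding proteoglycan lumican, was at 27.3, 20.9, 17.1 and 21.2 CPM in WT, 78.0 and 76.8 in clone 1, and 41.3 and 46.8 in clone 2 (1.49, adjusted p = 0.00883). It was higher in clone 1 than in clone 2 (clone 2 minus clone 1 -0.82, adjusted p = 0.0406). Neither gene overlapped between WT and clones.

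CYFIP2, a subunit of the actin-regulating WAVE complex, was at 6.84, 5.44, 5.44 and 6.83 CPM in WT and at 13.8, 14.8, 18.1 and 18.9 in the clones (1.42, adjusted p = 0.00191). SYNPO2, an actin-bundling protein, was at 0.658 to 1.02 CPM in WT and at 2.44 to 4.16 in the clones (1.87, adjusted p = 0.00642), and SCML1, a Polycomb-related gene of X, at 4.601 to 7.36 and at 16.8 to 20.98 (1.55, adjusted p = 0.00179). The others were KCNE1B (2.38), WSCD1 (2.25), SRGAP3 (2.07), OAS1 (1.89), FHAD1 (1.74), QRFP (1.67) and SQOR (1.56). KCNE1B is a near copy of KCNE1, and exons of SQOR overlap another gene, so these 2 values are less certain. Of the 12, SMOC1 alone passed in the 8-library comparison restricted to WT replicates 3 and 4 (adjusted p = 0.0492).

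**Figure D4:**
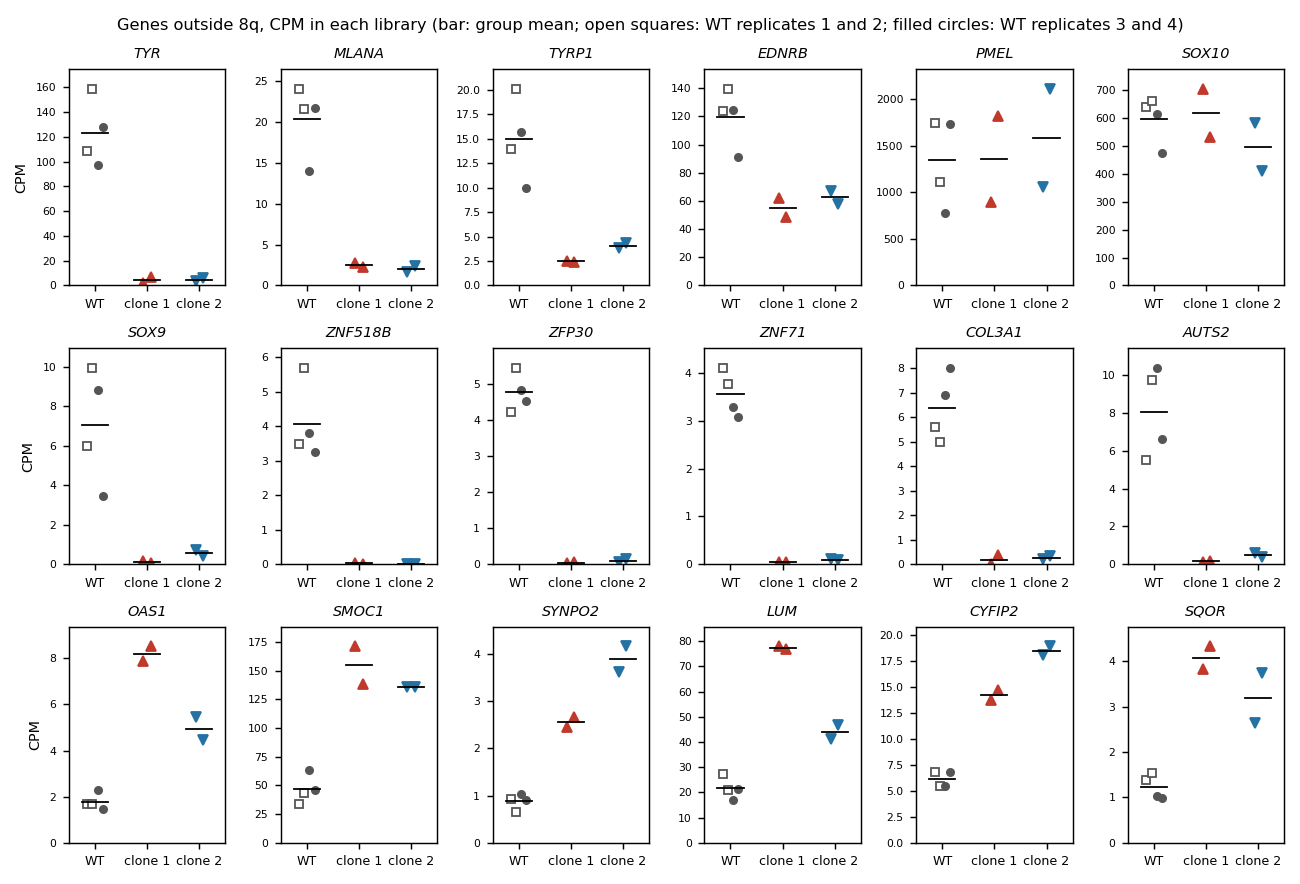
CPM of 18 genes outside 8q in each library (vertical axis from 0), with WT as grey squares and circles (open squares WT replicates 1 and 2), clone 1 as red and clone 2 as blue triangles, and bars for group means. TYR, MLANA, ZNF518B, ZFP30, ZNF71, COL3A1 and AUTS2 lie near 0 in both clones, OAS1, SMOC1, SYNPO2, LUM, CYFIP2 and SQOR lie above WT, and PMEL and SOX10 overlap.

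Zinc-finger genes of chromosome 19, mostly KRAB zinc-finger repressors that arose as a clustered family, were common among the shared falls. This family was singled out after its values were seen. Of 190 tested members 13 were lower in both clones and 0 higher (6.84% lower beside 0.932% of all genes): ZFP30, ZNF28, ZNF347, ZNF43, ZNF468, ZNF525, ZNF528, ZNF558, ZNF600, ZNF607, ZNF701, ZNF71 and ZNF91. With the clones fitted separately against WT replicates 3 and 4 alone, only ZFP30 and ZNF71 of these 13 passed in both. The family median was -0.008 in the 8-library fit. Of 206 zinc-finger genes of other chromosomes outside 8q, 1 was lower in both clones, which is ZNF518B. ZNF600 had 21 to 29 reads in each WT library and 0 in each clone library, at least 8.52-fold lower with a floor of 3 counts per library. ZNF28 and ZNF468 share exons with neighbours, and reads between family members may be split.

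A few innate immune genes rose. Of 24 tested interferon-stimulated genes 2 rose, OAS1 and OAS3, sensors of double-stranded RNA, 8.33% beside 0.554% of genes outside 8q. Against WT replicates 3 and 4 alone the values were 1.82 for OAS1 and 0.91 for OAS3, and neither passed (adjusted p = 0.204 and 0.242). The list median was 0.38 and 19 of 24 values were above 0. OAS1 was at 1.70, 1.67, 2.28 and 1.45 CPM in WT, 7.87 and 8.53 in clone 1, and 5.46 and 4.44 in clone 2 (1.89, adjusted p = 0.0057). OAS3 was at 15.1, 18.3, 19.3 and 24.5 CPM in WT and at 31.0, 46.2, 39.9 and 47.9 in the clones (1.09, adjusted p = 0.011). The 2 genes neighbour each other on 12q with OAS2, which was at 0.154, 0.702, 0 and 0.299 CPM in WT, 4.33 and 5.28 in clone 1, and 0.390 and 0.514 in clone 2 (clone 2 minus clone 1 -3.40, adjusted p = 0.0421). By clone, 8 of the 24 rose in clone 1, beside 2.34% of all genes, and BST2 fell (-1.49, adjusted p = 0.0205). In clone 2, 2 rose, beside 0.839%. The clone difference passed for 1 of the 24, OAS2, a share near the 3.42% of all genes. Of 14 genes of HLA class I presentation, HLA-B rose (15.96 to 32.9 CPM, 1.04, adjusted p = 0.0413), 7.14% beside 0.554%, and it did not pass against WT replicates 3 and 4 alone (adjusted p = 0.581). On that list 13 values were above 0, with a median of 0.26. By clone, HLA-B passed in clone 1 (adjusted p = 0.00349) and not in clone 2 (adjusted p = 0.121). Exons of HLA-B partly overlap those of HLA-C in the annotation, so reads may be shared. Of 16 chemokine and cytokine genes 0 passed in edgeR, 4 had an unadjusted p under 0.05, and DESeq2 called 2.

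On the matrix, lipid, cancer-testis and imprinted lists 7.69%, 9.09%, 15.4% and 11.1% of tested genes passed, which is 1 or 2 genes each, beside 1.2% of genes outside 8q. Of the genes called on these lists and KDR, COL3A1 passed in the 8q-loss against WT comparison with WT replicates 3 and 4 alone (adjusted p = 0.0489) and the others did not. MAGEC2 (-5.51, adjusted p = 0.086 there) did pass in both clones when these were fitted separately against the same libraries. Of 26 tested genes of the extracellular matrix and proteases outside 8q, SPARC rose and COL3A1 fell. SPARC, a secreted collagen-binding glycoprotein, was at 2516, 2792, 3156 and 2671 CPM in WT and at 4152, 3697, 3933 and 3630 in the clones (0.47, adjusted p = 0.0311). Of 22 genes of cholesterol and lipid synthesis 2 rose, INSIG1 (0.51, adjusted p = 0.0363) and STARD4 (0.54, adjusted p = 0.0459), with a list median of 0.23. Of 13 tested cancer-testis genes MAGEA1 rose and MAGEC2 fell. MAGEA1 was at 60.2, 58.3, 55.4 and 65.3 CPM in WT and at 92.3, 112, 95.7 and 111 in the clones (0.78, adjusted p = 0.00308). KDR, a VEGF receptor, rose from a mean of 2.17 to 6.45 CPM (1.56, adjusted p = 0.0342). Of 9 imprinted genes PLAGL1 rose (1.12, adjusted p = 0.0393). With the clones fitted separately against all WT, SPARC, INSIG1, STARD4 and KDR did not pass in clone 2, and PLAGL1 did not pass in clone 1.

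The clones also differed from each other. Clone 2 against clone 1 gave 551 called genes (3.42%), 265 higher (1.65%) and 286 lower (1.78%) in clone 2, with 20 of them among the 370 tested 8q genes. Without clone 2 replicate 1, clone 2 replicate 2 or clone 1 replicate 1 the count was 223, 257 or 269. It was 970 with DESeq2, 1303 with no low-count filter, and 2940 with the replicate number as a block on the clone libraries alone, where same-numbered libraries deviated together (correlation 0.728). Of the 647 genes called in clone 1 but not in clone 2, the clone difference passed for 244, and of the 223 called in clone 2 but not in clone 1 it passed for 100.

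Genes of 13q were lower in clone 1 and lay near the WT level in clone 2. The same median per library as for 8q, over 281 genes, was -0.33 and -0.48 in clone 1, 0.06 and 0.03 in clone 2, and -0.04 to 0.05 in WT. Of the autosomal arms with at least 30 tested genes, only 8q in both clones and 13q in clone 1 passed 0.2 in both libraries of a clone outside the WT range. Of 301 genes of 13q in the clone fit, 70 were lower in clone 1, beside 3.08% of all genes, and between clones 56 were higher in clone 2, beside 1.65% (clone 2 minus clone 1 median 0.47). In 20 Mb windows the clone 1 median ran from -0.33 to -0.49, so the shift covered the arm. RPL21, a ribosomal protein gene of 13q, was at 551, 553, 557 and 533 CPM in WT, 342 and 330 in clone 1, and 663 and 610 in clone 2. With 8q and 13q set aside, 672 genes were called in clone 1, 316 in clone 2 and 98 in both in 1 direction. EDNRB and TUBA3C lie on 13q but fell in both clones.

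**Figure D5:**
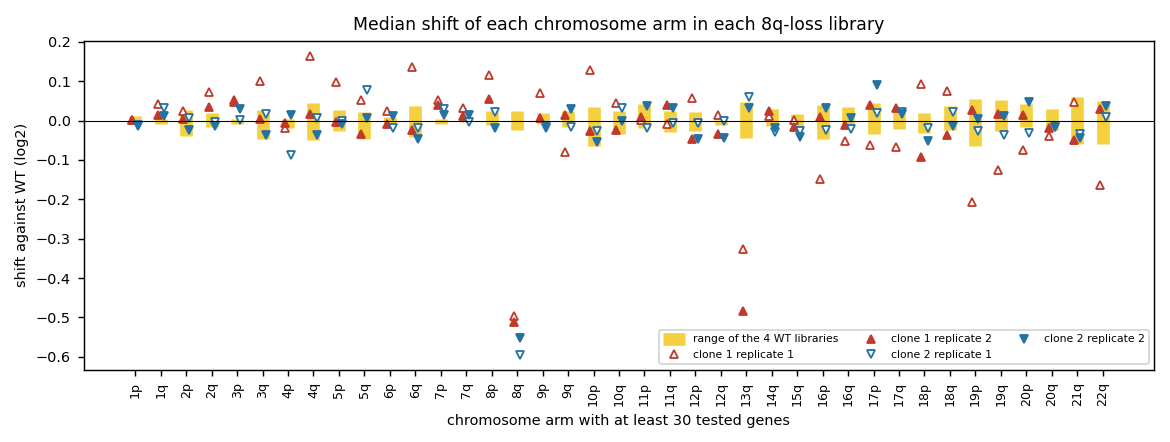
Shift of each autosomal chromosome arm against WT (vertical axis, log2, median over tested genes less that of the other arms) in each library of clone 1 (red) and clone 2 (blue), with the range of the 4 WT libraries as yellow bars; open and filled triangles are the 2 replicates. All 4 clone libraries lie near -0.5 on 8q, and the 2 clone 1 libraries lie at -0.33 and -0.48 on 13q.

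Some genes were on in one clone and off in the other. SLC38A1, a glutamine transporter, was at 56.0, 43.4, 60.4 and 43.1 CPM in WT, 0.168 and 0.271 in clone 1, and 133 and 123 in clone 2 (9.15, adjusted p = 5.73e-07). MDFI, an inhibitor of myogenic factors, was at 18.9, 21.2, 21.8 and 16.2 CPM in WT, 0.126 and 0.0902 in clone 1, and 61.4 and 43.2 in clone 2. FKBP5, a glucocorticoid-responsive co-chaperone, went the other way. It was at 8.08, 7.59, 9.16 and 11.8 CPM in WT, 26.5 and 31.6 in clone 1, and 0 in both clone 2 libraries, at least 64.0-fold below WT with a floor of 3 counts per library. MTARC2, C2CD6 and CCL2 were at 0 in clone 2 as well, at least 19.2-, 20.6- and 9.22-fold below WT. ZIC2, TENM1, FGFR2 and ZNF675 complete the 6 largest differences higher in clone 2.

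Cancer-testis genes of X were prominent in this contrast, with 6 of 13 tested genes different between clones beside 3.42% of all genes. MAGEC1 was at 71.2, 68.5, 59.5 and 84.1 CPM in WT, 101 and 120 in clone 1, and 0.341 and 0.561 in clone 2. PAGE5 was at 5.04 to 6.79 CPM in WT, 51.6 and 53.8 in clone 1, and 0.0487 and 0.561 in clone 2. MAGEB2 rose by 1.79 in clone 1 and fell by 4.32 in clone 2. Of 26 tested matrix and protease genes outside 8q, 5 differed between clones. COL1A1 was at 15.3 to 22.4 CPM in WT, 2.40 and 2.62 in clone 1, and 37.8 and 17.8 in clone 2 (clone 2 minus clone 1 3.46, adjusted p = 0.00083), and COL6A2 at 12.6 to 18.3, 0.337 and 1.62, and 22.4 and 20.9. In the protocadherin clusters of 5q, whose members are chosen cell by cell in neurons, 10 of 37 tested genes were called in clone 1 (27% beside 5.43% of all genes), 9 of them lower, 4 in clone 2 (10.8% beside 2.79%) and 1 in both in 1 direction (2.7% beside 1.15%).

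The A2058 clones without the 7p gain, 6 libraries of 3 clones from the same line and method, were compared directly with the 8q-loss clones in a fit of all 18 A2058 libraries. The contrast called 1399 of 16318 genes (8.57%), 722 higher (4.42%) and 677 lower (4.15%), and 723 or 794 without clone 1 replicate 2 or clone 2 replicate 2 of the 8q-loss group. On 8q 176 of 378 genes were lower in the 8q-loss clones and 5 were higher. Of the 100 genes outside 8q shared by the 8q-loss clones 98 were tested, and 42 differed from the 7p-loss clones, 40 of them further from WT in the 8q-loss direction. The 100 genes had been chosen on the same 8q-loss libraries. When each genotype was set against the WT libraries of its own table set, 8 genes were called in all and 0 of the 100. The log2 differences of the 42 kept their sign, and 39 stayed within 1.5 times their size on the log2 scale, a tally added after seeing the data, while 30 had an unadjusted p under 0.05. Their median size was 2.67 with all WT and 2.09 with own-set WT. The part of the table set was not tested. TYR had a log2 fold change of 1.18 in the 7p-loss clones and TYRP1 2.35, where the 8q-loss clones had -4.79 and -2.19. The difference did not pass for TYR (-5.97, SE 1.87, adjusted p = 0.0569) and passed narrowly for TYRP1 (-4.54, adjusted p = 0.0491), and with own-set WT the adjusted p was 0.953 and 0.972. Of the 98 genes 50 had the same sign in the 7p-loss clones, and 12 were called there against WT in the same direction. The share of all genes called for 7p-loss against WT was not tallied, so the 12 have no background here. Among the named genes MLANA (-2.94), ATP10A (-8.52), COL3A1 (-5.50) and MAGEC2 (-5.13) were lower than WT in the 7p-loss clones too, as were the zinc-finger genes ZNF558 (-4.02) and ZNF607 (-3.08), and SMOC1 was above WT there (1.28).

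HCT116, a colorectal cancer line of the same series, has 4 libraries of 8q-loss clones and 2 of WT. The effect of 8q loss in HCT116 less that in A2058 was called for 93 of 18105 genes (0.514%), 39 higher (0.215%) and 54 lower (0.298%), and for 0 of 399 on 8q by edgeR, where 42 had an unadjusted p under 0.05 and DESeq2 called 8. The median difference on 8q was 0.05. MYC had a log2 fold change of -0.25 in HCT116, RRS1 -0.69 and SNAI2 0.16, beside -0.85, -0.87 and -2.31 in A2058, and none of these 3 differences passed. Of the genes named outside 8q, 6 differed between the lines: ZNF518B, SOX9, OAS1, SCML1, CYFIP2 and SPARC. Others could not be compared. TYR, ZFP30, ZNF71, MAGEC2 and AUTS2, for example, had a log2 fold change of 0 in HCT116. The standard errors of their differences ran from 6405 to 14240, so the test could not call them. The count of 93 ranged from 40 without A2058 WT replicate 2 to 355 without HCT116 WT replicate 2.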

How the data were processed

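Libraries were poly(A)-selected RNA-seq of A2058 cells. The deposited values are read counts per gene that the authors made with HISAT2 2.0.5 and featureCounts 1.5.0-p3 on hg38, per the submitters' processing notes. The strand setting of the counting is not given in the sources used here, so a gene and an overlapping antisense gene cannot be told apart. The tables held 58735 genes, 1471 of them on 8q, and 0 rows without a gene name. Libraries were grouped by their labels and by clone.

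From the counts, edgeR 4.0.16 in R 4.3.3 (filterByExpr with a minimum count of 10 and a minimum total of 15, TMM, glmQLFit and glmQLFTest, Benjamini-Hochberg adjustment over all genes tested, adjusted p under 0.05) was fitted to 8q-loss against WT, to WT, clone 1 and clone 2 as levels, to 18 A2058 libraries and to A2058 with HCT116. Standard errors were taken from the F statistic of each gene (absolute log2 value over root F). CPM uses TMM library sizes, and log2 CPM a prior count of 2. A gene at 0 in a group is bounded with 3 counts per library. The fits of 8q-loss against WT and of each clone against WT were tested on simulated data. No such test is given here for the clone difference, the 18 A2058 libraries or HCT116. The arm shift used an exact permutation test over libraries.

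Named genes were list members, the 10 protein-coding 8q genes with the largest falls and the 10 with the smallest changes (mean CPM at least 10), the 12 largest shared changes in each direction outside 8q (mean CPM at least 1), and the 6 largest clone differences in each direction. The members and lists were chosen with earlier results of these data known. Alternatives were DESeq2 1.42.0, RLE size factors, other filters, other WT libraries, summed or left-out libraries and a replicate block.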

Additional observations from a re-analysis of the deposited data

Results flagged for a closer look

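In groups of 4 libraries, 5 of 188 tested groups (104 genes, group mean of at least 1 CPM) had 1 library apart from the others by Dixon's ratio (the gap to the nearest library over the range of the group), and chance gives about 1 in 20. SMOC1 was at 171 CPM in clone 1 replicate 1 and at 135 to 138 in the other 8q-loss libraries (0.919). RBM12B was at 30.9 CPM in WT replicate 3 and at 35.4 to 36.1 in the other WT libraries (0.872), MTARC2 at 3.20 in WT replicate 4 and at 2.56 to 2.63 in the others (0.881), ATP6V1C1 at 169 in WT replicate 1 and at 143 to 147 (0.845), and PUF60 at 340.4 in WT replicate 3 and at 319 to 321 (0.877).

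The effect of 8q loss differed between HCT116 and A2058 by the interaction test in edgeR for 6 of the named genes. HCT116 less A2058 was 8.17 for ZNF518B, 4.97 for SOX9, -3.83 for OAS1, -3.05 for SCML1, -2.78 for CYFIP2 and 2.44 for SPARC on the log2 scale. In HCT116 itself the log2 fold changes were 0.30 for ZNF518B, 0.59 for SOX9, -1.94 for OAS1, -1.50 for SCML1, -1.37 for CYFIP2 and 2.91 for SPARC. ZNF518B is close to 0 counts in the A2058 clones, so its difference depends on the prior count.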

How the results depend on the processing

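The count of 308 genes for 8q-loss against WT was 684 with DESeq2, 487 with no low-count filter, 557 without clone 1, 783 without clone 2, 161 with all 18 A2058 libraries in 1 fit, 217 with the libraries of each clone summed, 493 with the mitochondrial share as a covariate (chosen after seeing the data), 79 against WT replicates 1 and 2, 16 against WT replicates 3 and 4, and 119 to 287 with 1 library left out. With the replicate number as a block it was 59. The numbers do not pair WT with the clones: deviations correlated by 0.728 between same-numbered libraries of the clones, by 0.267 and 0.059 for number 1 with WT and by -0.325 and -0.158 for number 2. Differently numbered WT libraries of the same table set did deviate with them, WT replicate 3 with replicate 1 of the clones (0.349 and 0.599) and WT replicate 4 with replicate 2 (0.738 and 0.685). The labels do not pair these, so no fit used it, and the results against WT replicates 3 and 4 alone take no account of it. The 185 genes called in both clones were 316 with DESeq2, 467 with no filter, 110 and 15 against WT replicates 1 and 2 or 3 and 4, and 41 to 166 with 1 library left out. The 551 between clones were 970 with DESeq2, 1303 with no filter, 2940 with the replicate block on the clone libraries alone (chosen after seeing the data), and 223 to 602 with 1 library left out. The 1399 against 7p-loss were 8 with own-set WT (chosen after seeing the data) and 723 to 1702 with 1 library left out. The 93 against HCT116 were 400 with DESeq2, 165 with no filter, and 40 to 355 with 1 library left out. The arm shift was -0.56, -0.52, -0.50 and -0.57 with WT replicates 1 and 2, WT replicates 3 and 4, clone 1 or clone 2 alone, where fewer libraries cannot give a p below the threshold, -0.33 with no low-count filter, and -0.55 to -0.52 with 1 library left out. RLE size factors kept every count within 1.5 times. Genes named for their clone difference were not followed across settings. Of these, SLC38A1 was at 0.34 over both clones and -7.82 in clone 1, and FKBP5 at 0.67 and -10.65 in clone 2. Among the 92 named genes that were followed, those that changed sign all lay among the least changed of 8q. They were ST3GAL1 0.13 and THEM6 0.0050 against WT replicates 1 and 2, and KLF10 -0.098 and NDRG1 -0.043 against WT replicates 3 and 4. Without clone 1 they were KLF10 -0.036, ST3GAL1 0.085, NDRG1 -0.080, LRP12 0.086 and RDH10 -0.58, and without clone 2 FABP5 0.0044. With the replicate block it was ST3GAL1 0.13, and with the mitochondrial share THEM6 0.036 and NDRG1 -0.050. With 1 library left out KLF10 ran from -0.051 to 0.12, ST3GAL1 from -0.15 to 0.046, THEM6 from -0.23 to 0.094, NDRG1 from -0.030 to 0.24 and RDH10 from -0.14 to 0.34. Except where fewer samples entered, the cause was not tested. Of the same 92 named genes 82 were called, and of these 0 lost their call with DESeq2, 54 with the block, 21 with the libraries of each clone summed, 35 with all 18 A2058 libraries in 1 fit, 47 and 69 against WT replicates 1 and 2 or 3 and 4. Of 8q genes under 10 CPM 6.96% passed, beside 54.2% of those at 10 CPM or more.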
